A study of Mus musculus with 148 samples.

Results

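Wfdc17, Wfdc21, Slpi, Stfa2l1 and Cstb encode small protease inhibitors, and these 5 genes were followed among the 52634 gene rows counted in single immune cells from mouse lungs and mammary tumors. The 5 genes were selected on their levels in these same neutrophil, monocyte and macrophage labels, and the labels themselves come from clustering these cells, so levels across cell populations are given here as a description and not as a test. The measure was the number of unique molecular identifiers (UMIs, each standing for 1 captured RNA molecule) summed over the cells of 1 mouse, 1 tissue and 1 population label, with 10 or more cells per sum, and scaled to a total of 1000000 UMIs (CPM). Neutrophil (Neut), monocyte (Mon) and macrophage (Mac) cells numbered 12071 under 13 labels and gave 261 such sums, with a median of 49610 UMIs per sum (range 5720 to 731354).

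Proteins with a whey acidic protein (WAP) domain, such as Wfdc17, Wfdc21 and Slpi, are small secreted proteins. Slpi, secretory leukocyte protease inhibitor, blocks neutrophil serine proteases such as elastase and cathepsin G, and for Wfdc17 and Wfdc21 much less is known about the proteases they act on. Stefins, to which Stfa2l1 (stefin A2 like 1) and Cstb (stefin B, also called cystatin B) belong, stay inside the cell and block cysteine cathepsins, the proteases of the lysosome. Neutrophils carry serine proteases and metalloproteinases in granules, whereas macrophages are rich in cathepsins.

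The mice were C57BL/6 females carrying photoactivatable GFP (PA-GFP), and the tumor was EO771-tdTomato, a mouse breast cancer line marked with a red fluorescent protein. It was placed into a mammary gland at 8 weeks of age and resected 3 weeks later. Normal denotes whole lungs of control mice without tumor (3 mice), Pre-MET whole lungs of mice that still bore the primary tumor (3 mice), Primary the tumor itself (4 mice), and Relapse-free whole lungs of mice in which no metastasis was found (6 mice). MET (13 mice) and Distal normal tissue (14 mice) are lung sections with and without a visible metastasis, all from mice whose primary tumor had been resected. All of these were sorted as CD31-CD45+ cells, apart from 15 Relapse-free plates that were sorted on the photoactivated GFP signal (7 with it, 8 without it). MET Core (13 mice) and MET Invasive margin (7 mice) are cells labelled by light within a metastasis or around it and sorted as CD31-GFP+, 3 core plates also by CD45. The status label set these groups, although for 4 of the 7 margin mice the area label reads MET, as it does for core plates, beside a photoactivation target of ADJ, and for mouse 17 the area reads ADJ beside a target of NON-MET. One cell line was used, and only visible lesions count as MET. The authors followed the mice by weekly CT after resection and used microscopy to tell tissue with lesions from tissue without. Pre-MET lungs were defined by a lack of lesions in microscopy and CT and by flow cytometry for tdTomato+ cells. Several tissues came from the same animal, including Primary and Pre-MET.

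The 63 samples came from 27 mice and 148 plates of 12 sequencing batches, with 55 to 1974 cells per sample, and no well identifier occurred more than once among 24020 annotated wells. Median depth was 1013 to 1139 UMIs per cell by tissue and 3148 in Primary. The labels stood up to their markers with some exceptions. The 7 neutrophil markers S100a8, S100a9, Csf3r, Cxcr2, Retnlg, Il1r2 and G0s2 together made 103100 to 362700 CPM in Neut_Ptgs2, Neut_Ifit3, Neut_Lcn2 and Neut_Camp and at most 1638 CPM on average in any monocyte or macrophage label. In Neut_PMN-MDSC they made only 20440 CPM (range 2540 to 30330 over 5 sums). Mac_Cd9 carried the alveolar macrophage genes Chil3 (11600 CPM) and Marco (439 CPM) without C1qa (0 CPM), and its 6 lung epithelium markers summed to 174 CPM.

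The genes lie at 4 places in the genome (mm10, RefSeq positions on GRCm38). Wfdc17 (chr11:83704056-83706269) and Wfdc21 (chr11:83746940-83752646) are neighbours on the plus strand, 40670 bases apart with only Wfdc18 between them. Slpi is at chr2:164354070-164356507 on the minus strand, Stfa2l1 at chr16:36156811-36161948 in the stefin A cluster on the plus strand, and Cstb at chr10:78425670-78427622 on the plus strand. RefSeq promoters were at hand for 3 of the 5 genes, and the 250 bases before each start are shown because these 3 genes share a high level in neutrophils. Capitals mark matches to a C/EBP (TTGCNNAA), PU.1 (GAGGAAG), AP-1 (TGANTCA), STAT (TTCNNNGAA) or core promoter (TATAAA) motif on either strand. The C/EBP family and PU.1 are transcription factors active in granulocytes.
Wfdc17, chr11:83703806-83704055, plus strand: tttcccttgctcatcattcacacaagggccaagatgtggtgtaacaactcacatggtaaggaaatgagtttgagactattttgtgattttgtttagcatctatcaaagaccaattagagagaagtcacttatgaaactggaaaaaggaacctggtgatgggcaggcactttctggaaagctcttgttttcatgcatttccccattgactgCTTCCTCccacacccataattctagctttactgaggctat
Slpi, chr2:164356508-164356757, minus strand: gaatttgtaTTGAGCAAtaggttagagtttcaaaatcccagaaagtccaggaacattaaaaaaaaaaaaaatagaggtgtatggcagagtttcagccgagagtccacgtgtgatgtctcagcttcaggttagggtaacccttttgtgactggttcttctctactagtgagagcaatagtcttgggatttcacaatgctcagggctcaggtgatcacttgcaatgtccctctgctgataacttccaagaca
Stfa2l1, chr16:36156561-36156810, plus strand: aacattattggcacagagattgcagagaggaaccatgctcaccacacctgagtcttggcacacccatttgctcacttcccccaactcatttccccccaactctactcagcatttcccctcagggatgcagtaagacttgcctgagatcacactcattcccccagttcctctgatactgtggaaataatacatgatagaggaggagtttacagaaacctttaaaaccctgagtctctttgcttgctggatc
Wfdc17 held 1 PU.1 match, CTTCCTC, beginning 40 bases before the start, and Slpi 1 C/EBP match, TTGAGCAA, beginning 241 bases before it, while Stfa2l1 held none of the 5 and no match overlapped another. Of 32851 mouse promoters of this length, 10.6% held the PU.1 motif, 9.56% the C/EBP motif, 6.75% the AP-1 motif, 7.02% the STAT motif and 12.4% the core promoter motif. The 250 bases of Stfa2l1 were 89.4% identical to those of Stfa2, against 45.3% between Wfdc17 and Slpi and 46.6% between Wfdc17 and its neighbour Wfdc18.

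Wfdc17 was highest in neutrophils of the Neut_Ifit3 (24440 ± 11370 CPM, SD, n = 16 sums) and Neut_Lcn2 labels (20070 ± 9539, n = 24), followed by Neut_Ptgs2 (7614 ± 6260, n = 29). Neut_Camp (2047 ± 2011, n = 4) and Neut_PMN-MDSC (1894 ± 1304, n = 5) did not share that level and lay among the monocytes and macrophages. Mac_Gpnmb, the regulatory macrophages (2721 ± 1687, n = 14), Mon_Fn1 (2694 ± 1131, n = 54), Mac_Isg20 (2393 ± 1940, n = 15), Mon_Thbs1 (2127 ± 1266, n = 25), Mac_Cd81 (1881 ± 871, n = 9) and Mon_MHC-II (1810 ± 1355, n = 23) came next. Mon_Ace (761 ± 628, n = 32) and Mac_Cd9 (388 ± 556, n = 11) were lowest. In this order only the step from Neut_Lcn2 to Neut_Ptgs2 exceeded the larger of the neighbours' SDs. Neutrophils, 17.0% of the immune cells, held 64.5% of all Wfdc17 UMIs and monocytes 24.5%.

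Wfdc21 was restricted in a different way. Neut_Camp, the label with most S100a8, was highest at 5094 ± 1005 CPM (n = 4), with its 4 sums at 3784, 4835, 5794 and 5964 CPM. Neut_Lcn2 (2859 ± 1031), Neut_Ifit3 (998 ± 543) and Neut_Ptgs2 (563 ± 442) followed, while Neut_PMN-MDSC, at 75.1 ± 109 CPM, lay close to Mon_Fn1 (61.8 ± 103). The steps from Neut_Camp to Neut_Lcn2, from Neut_Lcn2 to Neut_Ifit3 and from Neut_Ptgs2 to Neut_PMN-MDSC exceeded the larger SD. The only macrophage label in this range was Mac_Cd9 at 691 ± 439 CPM (n = 11, lowest 314, highest 1813), where each sum held Wfdc21 UMIs. Mac_Cd81, Mac_Isg20, Mac_Gpnmb and the 4 monocyte labels had means of 4.74 to 61.8 CPM. The neutrophil markers summed to 642 CPM in Mac_Cd9 and to 645 to 732 CPM in Mac_Cd81, Mac_Isg20 and Mac_Gpnmb; their part in these levels was not tested.

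Slpi was high in all 5 neutrophil labels, with means of 1876 ± 952 CPM in Neut_Ifit3, 1807 ± 621 in Neut_Lcn2, 1556 ± 779 in Neut_Ptgs2, 958 ± 1214 in Neut_PMN-MDSC and 865 ± 489 in Neut_Camp. No neighbours in its order differed beyond the larger SD. Mac_Isg20 (383 ± 409), Mac_Cd9 (306 ± 275), Mon_Thbs1 (305 ± 231) and Mon_Fn1 (220 ± 147) formed a middle group, and Mon_MHC-II (32.7 ± 60.8) and Mac_Cd81 (17.2 ± 23.3) were lowest. The Neut_PMN-MDSC sums were spread widely, at 0, 92.8, 653, 1052 and 2989 CPM. The Slpi row is uncertain in 1 respect. A microRNA row, Mir7678 (chr2:164354313-164354383, minus strand), shares 1 base with the last exon of Slpi and otherwise lies in the intron before it, on the same strand. Over the same 261 sums the Mir7678 row held 19127 UMIs and the Slpi row 11921, and its means ran from 54.0 CPM in Mon_MHC-II to 3210 CPM in Neut_Ifit3. With both rows summed the order of labels began with Neut_Ifit3 (5086 ± 1823 CPM), Neut_Lcn2 (4973 ± 1374) and Neut_Ptgs2 (4202 ± 1271).

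Stfa2l1 was found almost only in neutrophils, where 98.1% of its UMIs lay. Its means were 927 ± 676 CPM in Neut_Ifit3, 806 ± 485 in Neut_Lcn2, 351 ± 295 in Neut_Ptgs2, 205 ± 219 in Neut_Camp and 136 ± 119 in Neut_PMN-MDSC. Every monocyte and macrophage label had a mean of 6.71 CPM or less, and Mac_Cd9, Mac_Cd81 and Mon_MHC-II held none. Of the 370 stretches of 50 bases in its transcript, 91 (24.6%) also occur in the stefin genes Stfa2 or Gm49652. Reads with more than 1 mapping position were dropped by the authors, so Stfa2l1 counts are uncertain. The other 4 genes shared none of their 50-base stretches with another gene.

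Cstb was distributed differently, with the macrophage labels and all monocyte labels but Mon_Ace above 4 of the 5 neutrophil labels. Mac_Isg20 (2855 ± 644 CPM, n = 15) and Mac_Gpnmb (2713 ± 1013, n = 14) led the macrophages, ahead of Mac_Cd81 (1664 ± 629) and Mac_Cd9 (927 ± 418). Among monocytes Mon_Thbs1 stood at 1767 ± 987 CPM and Mon_MHC-II, Mon_Fn1 and Mon_Ace at 665 ± 386, 617 ± 449 and 276 ± 246. Neut_Ptgs2, Neut_Ifit3, Neut_Lcn2 and Neut_Camp lay at 320, 278, 161 and 140 CPM. Mon_Ace thus lay among these neutrophils, and Neut_PMN-MDSC was the highest label of all at 3676 ± 2187 CPM. Its 5 sums were 5226 and 4174 CPM in MET, 5774 and 2925 CPM in MET Core and 282 CPM in a Relapse-free lung, so the Relapse-free sum stood below the other 4. Monocytes held 42.3% of Cstb UMIs, macrophages 37.2% and neutrophils 6.37%.

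**Figure D1:**
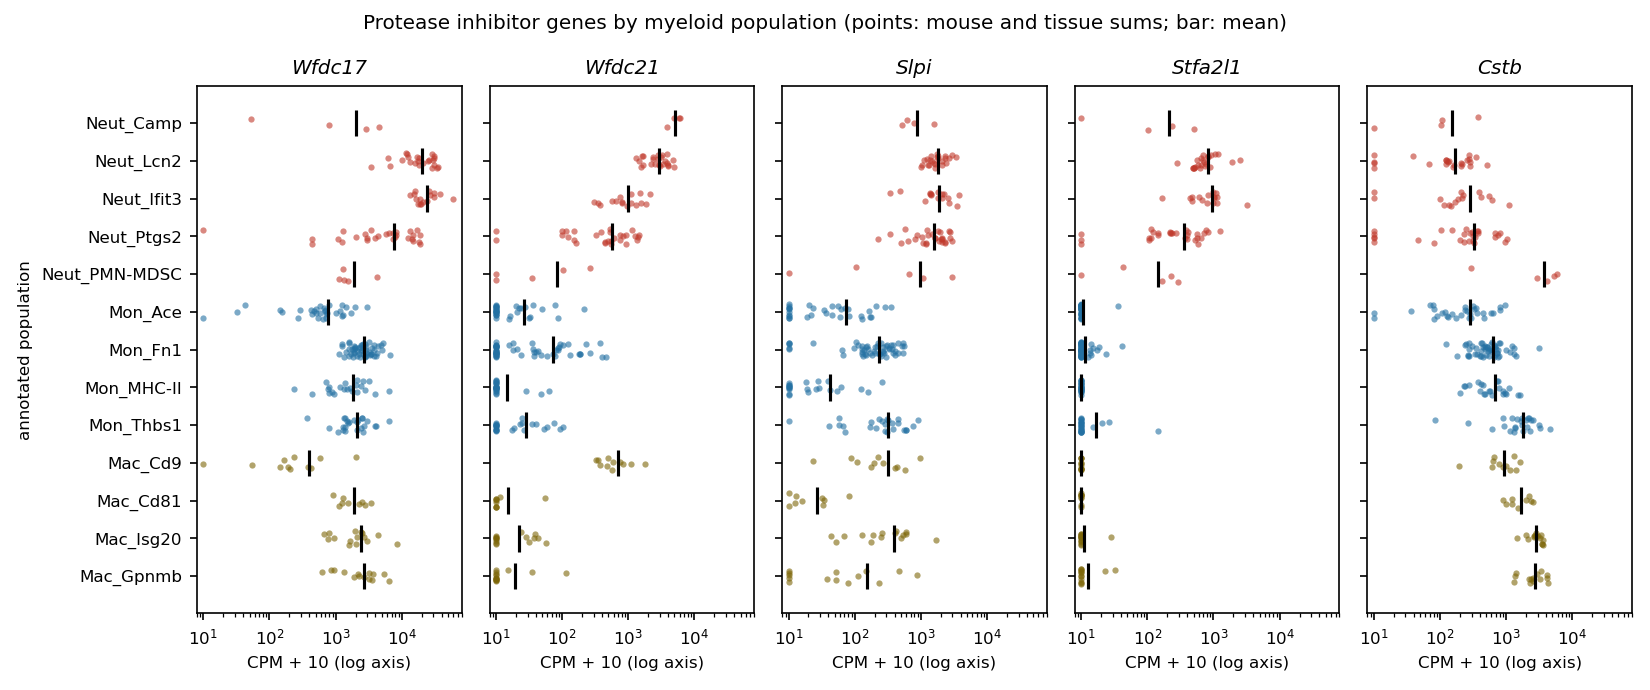
Level of each gene (CPM + 10, log axis) in the 13 myeloid labels. Each point is the sum of 1 mouse, tissue and label and the black bar is the mean; Wfdc17 peaks in Neut_Ifit3 (24440 CPM), Wfdc21 in Neut_Camp (5094 CPM), and Cstb is high in Neut_PMN-MDSC, Mac_Isg20 and Mac_Gpnmb.

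Pairs of labels were also compared within single samples, where both shared mouse, tissue and plates, and some steps of these orders were seen there and others were not. Wfdc17 was higher in Neut_Lcn2 than in Neut_Ptgs2 in 18 of 18 samples, with a mean difference of 0.84 ± 0.52 (SD) on the log2 scale. Wfdc21 was also higher in Neut_Lcn2 in 18 of 18, by 2.06 ± 1.06, whereas Slpi was higher in 8 of 18 (0.08 ± 0.41). Against Neut_Lcn2, Neut_Ifit3 had less Wfdc21 in 16 of 16 samples (-1.63 ± 0.76) and more Wfdc17 in 12 of 16 (0.35 ± 0.45), whereas Slpi was higher in Neut_Ifit3 in 9 of 16 (-0.08 ± 0.66). Among monocytes, Mon_Fn1 had more Wfdc17 than Mon_Ace in 30 of 31 samples (2.38 ± 1.73) and more Slpi in 29 of 31, and Mon_MHC-II had less Slpi than Mon_Fn1 in 20 of 22. Cstb was higher in Mon_Thbs1 than in Mon_Fn1 in 21 of 22 samples (1.05 ± 1.09) and higher in Mac_Isg20 than in Mon_Thbs1 in 14 of 15 (0.57 ± 0.41), where Wfdc17 was higher in 7 of 15 (0.13 ± 0.84). Against its place in the order of means, Mac_Gpnmb had more Cstb than Mac_Isg20 in 6 of 9 samples (0.23 ± 0.42). In the 5 samples with Neut_PMN-MDSC and Neut_Ptgs2 sums, Wfdc17, Wfdc21 and Stfa2l1 were lower in Neut_PMN-MDSC in 5 of 5. Slpi was lower there in 4 of 5 (-2.47 ± 2.76), and Cstb was higher in 4 of 5. Mac_Cd9 had more Wfdc21 than Mon_Ace in 9 of 9 samples, at means of 740 and 13.6 CPM.

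In single cells thinned to 500 UMIs each, Wfdc17 was seen in 97.3% of Neut_Ifit3 cells, 85.2% of Neut_Lcn2, 50.6% of Neut_Ptgs2 and 58.3% of Mon_Fn1, as means over samples. Naive CD4 T cells (T_CD4_Lef1), which should lack it, gave 6.22%. Unthinned, these shares were 99.6%, 88.7%, 54.0%, 77.2% and 11.8%, at median depths of 886, 1076, 945, 1503 and 934 UMIs. Wfdc21 was seen in 93.2% of Neut_Camp, 59.8% of Neut_Lcn2, 20.8% of Mac_Cd9 and 0.848% of T_CD4_Lef1 cells after thinning, and Slpi in 43.5% of Neut_Lcn2 and 0.231% of T_CD4_Lef1. Thinned shares of Stfa2l1 were 24.2% in Neut_Ifit3 and 0.0659% in T_CD4_Lef1, and those of Cstb 67.4% in Mac_Isg20, 49.9% in Neut_PMN-MDSC and 4.31% in T_CD4_Lef1. The 592 wells left empty held 8490 UMIs in all, with a median of 8 per well. Of these 26 were Wfdc17, 4 Cstb, 3 Slpi and 2 Wfdc21, and none was Stfa2l1.

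Over the 261 sums, the gene most like Wfdc17 by Pearson correlation of log2(CPM + 10) was Stfa2l1 (r = 0.65), followed by Gm7676 (0.65) and Gm5483 (0.63). Wfdc21 went with Retnlg (0.82), Lrg1 (0.82) and S100a9 (0.80), Stfa2l1 with Cxcr2 (0.90), Mmp9 (0.89) and Retnlg (0.89), and Slpi with Mir7678 (0.90), Cxcr2 (0.72) and Retnlg (0.70). Cstb went with Spp1 (0.67), Capg (0.67) and Rnh1 (0.65), and its correlation with each of the other 4 genes was below 0 (-0.44 to -0.17). These values describe sums that share mice and plates and differ in depth.

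The comparison of control lungs with Pre-MET lungs asked what a distant primary tumor changes before metastases are seen. In neutrophils Wfdc17 was at 385, 1930 and 2277 CPM in the 3 Normal mice and at 11660, 17130 and 25710 CPM in the 3 Pre-MET mice. The groups did not overlap, as for 7.69% of all genes tested in this direction and 7.69% in the other, and the log2 fold change was 3.44 ± 0.52 (SE; edgeR quasi-likelihood test, adjusted p = 0.00914 over 377 genes tested). Stfa2l1 was at 0, 58.5 and 84.3 CPM in Normal, 4 UMIs in all, and at 567, 826 and 1508 CPM in Pre-MET. The filter asked for 341 CPM in 3 sums, which the 3 Pre-MET sums and no Normal sum reached, so Stfa2l1 entered the test only through the group where it was high, and its log2 fold change of 3.90 ± 0.78 (edgeR adjusted p = 0.0414, and 0.00343 without the filter) is given as a description. Slpi was at 289, 506 and 526 CPM against 883, 1459 and 1712 CPM, again without overlap, but its log2 fold change of 1.47 ± 0.46 did not pass (edgeR adjusted p = 0.288). Wfdc21 overlapped between the groups (289 to 1521 against 775 to 2550 CPM; log2 fold change 0.99 ± 0.59, edgeR adjusted p = 0.646), and Cstb, with 0 to 295 against 14.2 to 333 CPM, was too low to be tested. Wfdc17 reached the filter's level in all 3 Normal sums, but Slpi and Wfdc21 in 2 of the 3, so these 2 genes also entered through Pre-MET and their values are a description. Of all genes tested 0.796% rose and 0.265% fell.

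Within Neut_Ptgs2 cells alone, Wfdc17 stood at 436, 1094 and 1288 CPM in Normal and 4358, 6289 and 19110 CPM in Pre-MET (log2 fold change 3.35 ± 0.59, edgeR adjusted p = 0.00609 over 199 genes). Neut_Ptgs2 made up 80.2% of neutrophils in Normal and 33.0% in Pre-MET on average, and Neut_Ifit3 2.78% and 31.1%. The sums of all neutrophils were already small, at 13 to 36 cells and 10390 to 34196 UMIs in Normal and 27 to 76 cells in Pre-MET. The Wfdc17 call was lost without Normal mouse 1 (log2 fold change 3.17, edgeR adjusted p = 0.0702), Pre-MET mouse 9 (3.58, 0.0657) or Pre-MET mouse 10 (3.11, 0.0844), and the Stfa2l1 call without any 1 of the 6 mice (3.68 to 4.38, 0.0727 to 0.203). All Normal plates were of 1 sequencing batch that held no Pre-MET plate, so batch and tissue cannot be told apart. The 8 macrophage markers summed to 551 CPM in Normal neutrophils (42.2 to 936, 2 of 8 markers seen) and to 46.3 CPM in Pre-MET (28.3 to 81.5, 2 of 8), and C1qa, C1qb, C1qc, Marco and Gpnmb were at 0 in both; their part in the result was not tested.

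In monocytes of the same mice Wfdc17 was at 1296, 1584 and 1636 CPM in Normal and 2268, 2610 and 2632 CPM in Pre-MET (log2 fold change 0.70 ± 0.16, edgeR adjusted p = 0.0205 over 4953 genes). Slpi was at 0, 4.11 and 59.8 CPM against 90.2, 106 and 115 CPM (2.28 ± 0.75, edgeR adjusted p = 0.104), and Cstb at 155, 288 and 319 against 401, 454 and 481 CPM (0.78 ± 0.25, edgeR adjusted p = 0.102). All 3 genes were higher in each Pre-MET mouse than in any Normal mouse, as were 14.8% of all genes tested (9.67% were lower in each), but only Wfdc17 passed the test. Slpi reached the filter's 30.6 CPM in 1 of 3 Normal and 3 of 3 Pre-MET sums and so entered the test through Pre-MET, and its values are a description. Of all genes tested 2.3% rose and 2.02% fell. With the Slpi and Mir7678 rows summed the log2 fold change of their sum was 2.10 ± 0.49 (edgeR adjusted p = 0.0208), but the summed row reached the filter's level in 2 of 3 Normal and 3 of 3 Pre-MET sums and is likewise a description. In neutrophils it was 0.83 ± 0.27 (edgeR adjusted p = 0.347). Wfdc21 (3 and 44 UMIs) and Stfa2l1 (0 and 1 UMI) were too low to be tested.

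The makeup of the monocytes differed between the groups: Mon_Ace made up a mean of 59.0% in Normal and 22.6% in Pre-MET and Mon_Fn1 23.9% and 69.6%, shares that were not tested here. Within Mon_Fn1 cells Wfdc17 was at 3766, 2741 and 1864 CPM in Normal and 2566, 3230 and 2819 CPM in Pre-MET, and its log2 fold change was 0.02 ± 0.24 (edgeR adjusted p = 0.983). Within Mon_Ace cells it was 0.96 ± 0.58 (edgeR adjusted p = 0.61). The call on all monocytes was also lost without Normal mouse 3 (0.62, edgeR adjusted p = 0.0750) or Pre-MET mouse 10 (0.71, 0.0559). Neutrophil markers summed to 619 CPM in Normal monocytes (424 to 825, 6 of 7 markers, Cxcr2 at 0) and 1515 CPM in Pre-MET (1104 to 2182, 7 of 7), and macrophage markers to 432 CPM (277 to 657, 8 of 8) and 1784 CPM (1335 to 2456, 5 of 8, C1qa, Mrc1 and Gpnmb at 0); their part was not tested.

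Of the 88 genes of a wider list of protease inhibitors and proteases, 24 could be tested in monocytes and 6 were called, 3 in each direction, beside 214 of 4953 genes in all. Anxa1, listed among the inhibitors although it is an anti-inflammatory phospholipid-binding protein, rose (log2 fold change 1.53 ± 0.18, edgeR adjusted p = 0.000177). Mmp8, the neutrophil collagenase, had a log2 fold change of 2.77 ± 0.60 (edgeR adjusted p = 0.0138) but reached the filter's level in 0 of 3 Normal and 3 of 3 Pre-MET sums, so its value too is a description. Cst3, the secreted cystatin C, fell by 0.74 and Ctsb, cathepsin B, by 0.66 on the log2 scale (edgeR adjusted p = 0.0081 and 0.0278). Besides Wfdc17, the remaining call was Ctss, cathepsin S, which also fell. Over all samples Mon_Ace and Mon_Fn1 held 5275 and 2902 CPM of Cst3, 2143 and 912 of Ctsb, 2850 and 2645 of Ctss and 268 and 789 of Anxa1. The part of the label makeup in these calls was not tested. In neutrophils 10 genes of the list could be tested, and beside Stfa2l1, which entered through Pre-MET alone, Wfdc17 was the one called.

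**Figure D2:**
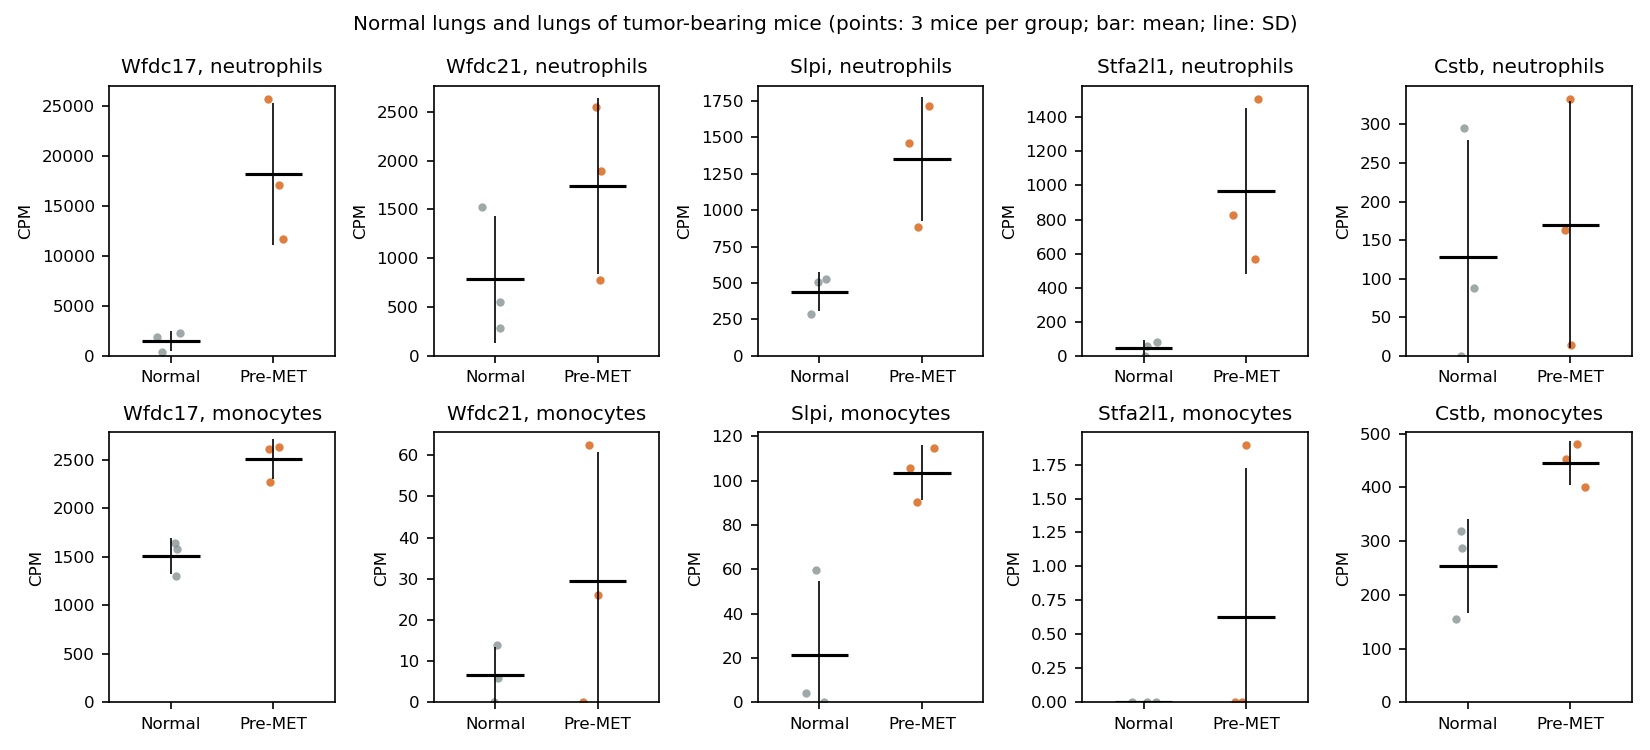
CPM of the 5 genes in neutrophils (top) and monocytes (bottom) of 3 Normal and 3 Pre-MET mice; bars are means and lines SDs. Wfdc17 and Stfa2l1 in neutrophils and Wfdc17 in monocytes do not overlap between the groups and passed the test, Stfa2l1 after entering it through the Pre-MET sums alone.

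Distal normal tissue and MET sections asked what differs at the lesion within metastatic lungs. In macrophages Wfdc21 was at 56.7 to 1446 CPM in Distal normal tissue (median 677, n = 6) and 0 to 173 CPM in MET (median 58.0, n = 9). All 5 mice with sums from both tissues had less in MET, and the log2 fold change was -3.27 ± 0.60 (edgeR adjusted p = 0.00153 over 1289 genes). Within the batch with 4 distal and 3 MET samples it was -3.73 ± 0.61 (edgeR adjusted p = 0.00195). There only the distal sums reached the filter's level, while the MET sums held 0, 129 and 70.0 CPM. Wfdc21 thus entered that fit through Distal normal tissue, and its value is a description. Wfdc17 had a median of 548 CPM (149 to 2321) in Distal normal tissue and 2304 CPM (639 to 5191) in MET and was higher in MET in 5 of 5 mice, yet its log2 fold change of 1.47 ± 0.50 did not pass (edgeR adjusted p = 0.0693). Cstb was at 314 to 3232 CPM and 1669 to 3292 CPM (0.61 ± 0.36, edgeR adjusted p = 0.339), and was higher in MET in 4 of 5 mice. With the mouse as a block, over the 5 mice with both tissues, Cstb passed at 1.15 ± 0.33 (edgeR adjusted p = 0.0196, and 0.149 without the block). Wfdc17 stood at 1.88 ± 0.46 (edgeR adjusted p = 0.00694, and 0.0658 in the same mice without the block). In these fits the distal Wfdc17 sum of mouse 30 (149 CPM) lay below the filter's level, which every MET sum reached. Wfdc17 thus entered them through MET, and its values there are a description. Wfdc17 and Cstb also passed with sequencing batch as a term (1.73 and 1.23, edgeR adjusted p = 0.0196 and 0.0208). Most alternatives did not pass: of 10 run, Wfdc17 passed in 3, the block fit among them, and Cstb in 2 (highest edgeR or DESeq2 adjusted p 0.369 and 0.445). Slpi overlapped widely (0 to 776 and 29.0 to 1163 CPM; 0.45 ± 0.72, edgeR adjusted p = 0.789) and Stfa2l1, with 0 and 2 UMIs, was not tested. Slpi reached the filter's level in 3 of 6 distal and 6 of 9 MET sums, so it entered through MET and its values are a description. Of all genes tested 6.9% rose and 2.64% fell. Wfdc21 reached the filter's level of 145 CPM in 5 of 6 distal and 1 of 9 MET sums, and without the filter its log2 fold change was -2.71 ± 0.47 (edgeR adjusted p = 4.54e-06).

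Mac_Cd9 made up 63.6% of the macrophages in Distal normal tissue (30.0% to 88.2%) and 7.65% in MET (0% to 25.4%). Mac_Cd9 sums of 10 or more cells held 368, 1088 and 1813 CPM of Wfdc21 in Distal normal tissue and 471 CPM in the 1 MET sample that had one, so no test within that label could be made. The 3 Normal lungs, 92.6% Mac_Cd9, had 402, 734 and 792 CPM over all macrophages, the Primary macrophages at most 1.39 CPM. Distal sums held only 10 to 20 cells. The neutrophil markers summed to 1092 CPM in the distal macrophages (157 to 3288, 6 of 7 seen, Il1r2 at 0) and 681 CPM in MET (93.6 to 1999, 7 of 7), and the lung epithelium markers to 110 CPM (0 to 448, 2 of 6, Sftpb, Sftpa1, Scgb1a1 and Scgb3a2 at 0) and 34.7 CPM (0 to 77.2, 4 of 6, Sftpb and Scgb3a2 at 0); their part was not tested. Monocyte markers summed to 778 CPM in the distal macrophages (71.6 to 1132, 7 of 7) and 1832 CPM in MET (798 to 3014, 7 of 7), and macrophage markers to 12030 CPM (7473 to 14690, 8 of 8) and 5873 CPM (3317 to 8936, 8 of 8); their part in the values of Wfdc21, Wfdc17 and Cstb was not tested either. Of the 22 genes of the wider list that could be tested, Mmp12, the macrophage elastase (2.54 ± 0.59, edgeR adjusted p = 0.00751), and Lgmn, the lysosomal protease legumain (1.91 ± 0.54, 0.0241), were called higher in MET and Wfdc21 lower. Mmp12 reached the filter's level in 0 of 6 distal and 9 of 9 MET sums and Lgmn in 3 of 6 and 9 of 9, so both entered through MET and are a description.

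**Figure D3:**
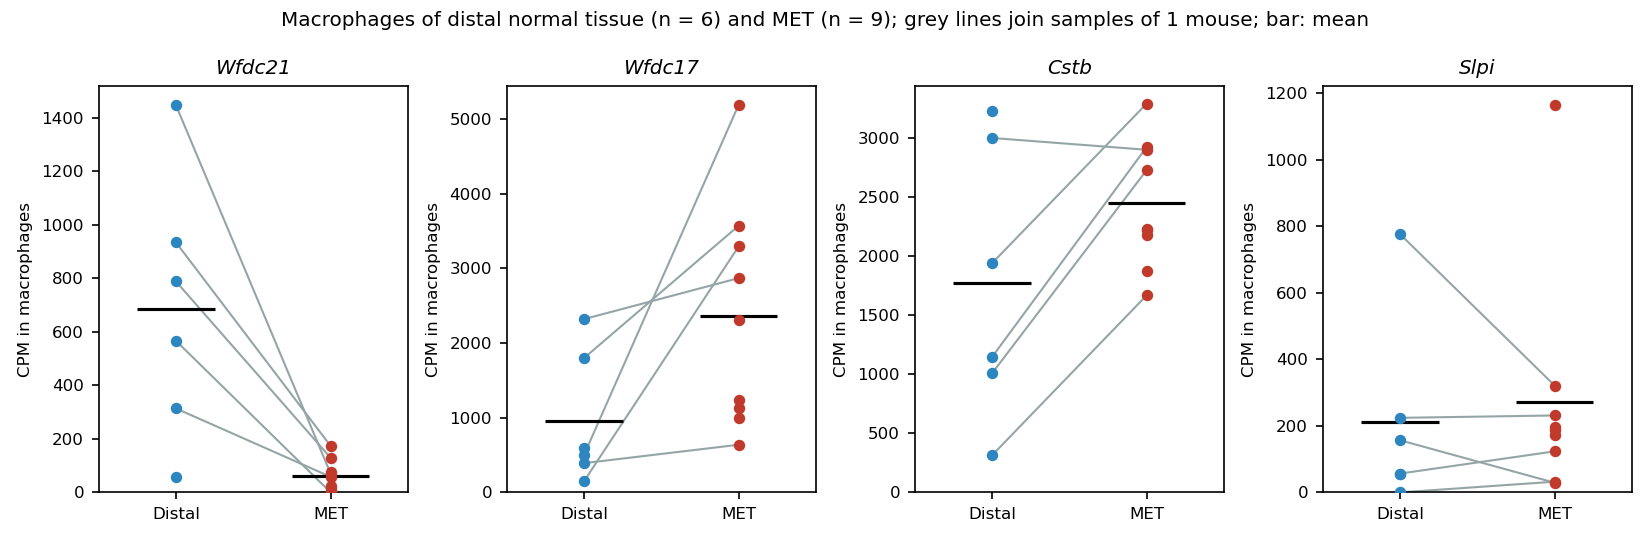
CPM in macrophages of Distal normal tissue (6 mice) and MET (9 mice); grey lines join the 2 tissues of 1 mouse and bars are means. Wfdc21 is lower in MET in 5 of 5 mice and Wfdc17 higher in 5 of 5.

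In neutrophils none of the 5 genes passed the test between Distal normal tissue and MET, and nor did any other of the 715 genes tested (0% rose, 0% fell; edgeR, 26 genes at an unadjusted p under 0.05, and 0 calls by DESeq2). Wfdc17 ranged widely in each tissue, from 2601 to 32380 CPM (median 17820, n = 9) and from 3602 to 31540 CPM (median 9586, n = 9), with a log2 fold change of -0.05 ± 0.48. Mice low in 1 tissue were low in the other. Mice 36, 28, 31, 37, 30 and 26 had 2601, 6284, 18730, 23430, 29160 and 32380 CPM in Distal normal tissue and 3602, 7358, 18530, 23200, 31540 and 27130 CPM in MET. With the mouse as a block the log2 fold change in these 6 mice was 0.16 ± 0.15, where it was 0.06 ± 0.63 without the block. Wfdc21 (-0.27 ± 0.46), Slpi (-0.19 ± 0.25) and Stfa2l1 (0.17 ± 0.42) did not pass either (edgeR adjusted p = 0.999). Cstb was higher in MET in 6 of 6 mice, at 60.1 to 875 CPM against 0 to 487 CPM over all sums, but with a log2 fold change of 1.27 ± 0.46 it did not pass (edgeR adjusted p = 0.999). Some of these values lay near the floor. Mice 30 and 31 had 0 CPM in Distal normal tissue, mouse 31 in a sum of 11 cells and 7421 UMIs. In MET, mouse 30 had 60.1 CPM in a sum of 16646 UMIs. Neut_PMN-MDSC, the label rich in Cstb, was 3.36% of neutrophils in MET and 0.111% in Distal normal tissue.

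**Figure D4:**
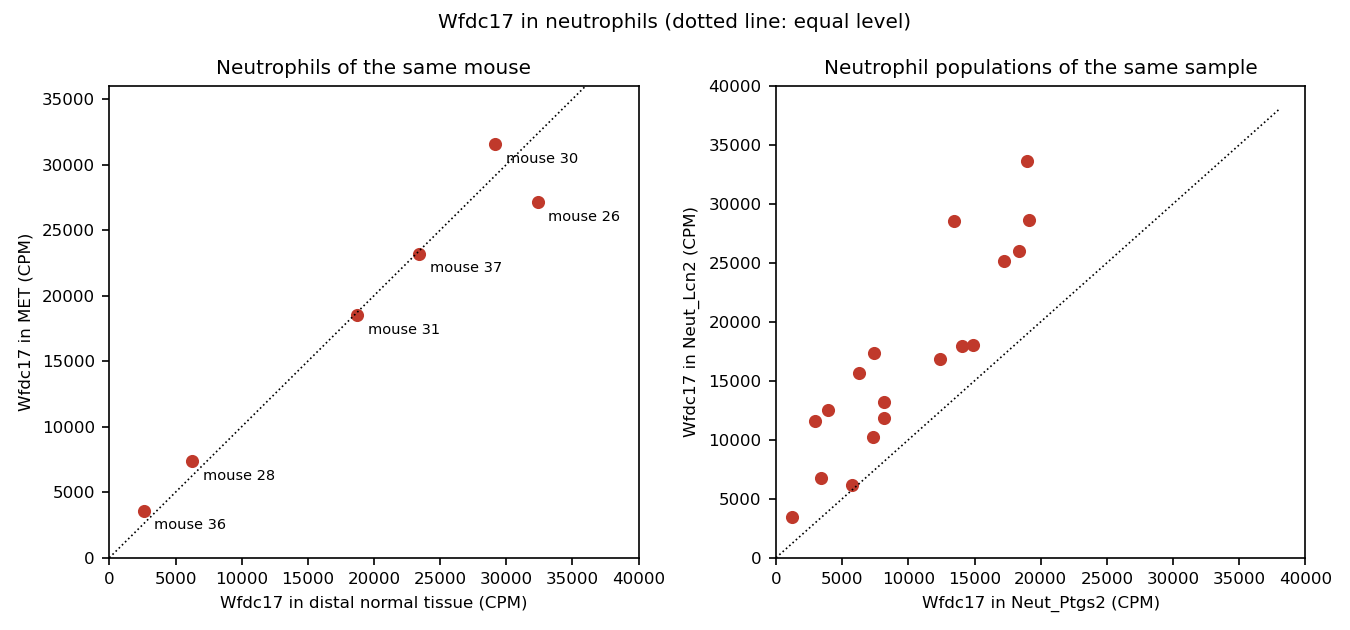
Wfdc17 (CPM) in neutrophils. Left, Distal normal tissue against MET in 6 mice, each point a mouse close to the dotted line of equal level; right, Neut_Ptgs2 against Neut_Lcn2 in 18 samples, all above that line.

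Mon_Fn1 cells gave no call between Distal normal tissue and MET either (0 of 3 members tested; 0% of 1292 genes rose and 0% fell; edgeR, 17 at an unadjusted p under 0.05, 0 by DESeq2). The log2 fold changes were -0.05 ± 0.19 for Wfdc17, 0.18 ± 0.27 for Slpi and 0.05 ± 0.25 for Cstb over 13 sums per tissue. The medians of Wfdc17 were 2622 CPM in Distal normal tissue and 2356 CPM in MET. Core and margin of the lesion were compared in the same cells. Cstb was at 226 to 3095 CPM in MET Core (median 1139, n = 7) and 265 to 739 CPM in MET Invasive margin (median 534, n = 5), a log2 fold change of -1.08 ± 0.46 that did not pass (edgeR adjusted p = 0.875), and was lower in the margin in 3 of 3 mice with both. Cstb reached the filter's 337 CPM in 5 of 7 core and 4 of 5 margin sums, with 5 needed. It thus entered the test through MET Core, and its values are a description. Wfdc17 had a log2 fold change of -0.09 ± 0.34 (edgeR adjusted p = 0.98), and the other 3 genes were too low to be tested. In the same 3 mice Slpi went from 196, 145 and 0 CPM in the core to 339, 237 and 118 CPM in the margin, and Wfdc21, at 0 to 92.0 CPM in the core and 33.8 to 177 CPM in the margin, was also higher in each. The sums of mice 28 and 31 held only 55311 and 12078 UMIs in the core and 29588 and 33946 in the margin. Both genes thus rest on few UMIs in these mice. Neutrophil markers summed to 949 CPM in core Mon_Fn1 cells (0 to 2520, 7 of 7) and 2548 CPM in margin ones (44.5 to 7297, 7 of 7); their part was not tested. The margin sums of mice 31 and 36 carry the area label MET, and without both the log2 fold changes were -0.90 ± 0.53 for Cstb and 0.20 ± 0.37 for Wfdc17 (edgeR adjusted p = 0.977). None of 538 genes was called here (0% rose, 0% fell; edgeR, 26 at an unadjusted p under 0.05, 0 by DESeq2).

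Mon_Thbs1 monocytes, found in Primary tumors and in metastasis cores, allowed a comparison of the 2 tumor sites. Cstb was at 902, 929, 1296 and 2008 CPM in Primary and 1695 to 4651 CPM in MET Core (median 2150, n = 8), a log2 fold change of 0.85 ± 0.32 (edgeR adjusted p = 0.212). Wfdc17 was at 1093 to 1517 CPM and 356 to 4088 CPM (0.76 ± 0.42, edgeR adjusted p = 0.411), and Slpi at 46.9 to 445 CPM and 0 to 892 CPM (1.03 ± 0.60, 0.459). None of these 3 was called, beside 0.682% of 2345 genes that rose and 0.554% that fell, and Wfdc21 and Stfa2l1 were not tested. Slpi reached the filter's 95.6 CPM in 2 of 4 Primary and 7 of 8 MET Core sums, so it entered through MET Core and its values are a description. Only 1 batch held both sites, with 1 Primary and 1 MET Core sample, in which Cstb was 2008 and 1695 CPM and Wfdc17 1093 and 356 CPM. With batch as a term the 3 log2 fold changes turned negative (-0.16 ± 0.62, -1.53 ± 0.81 and -0.62 ± 1.32 for Cstb, Wfdc17 and Slpi) and no gene was called.

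Set side by side over all tissues, with no test, Wfdc17 in neutrophils was lowest in Normal (1531 ± 1007 CPM, n = 3) and Primary (0 and 6039 CPM), intermediate in Relapse-free lungs (7644 ± 5356, n = 5) and between 14000 and 18170 CPM in Pre-MET, Distal normal tissue, MET, MET Core and MET Invasive margin. Slpi in neutrophils ran from 194 and 681 CPM in Primary and 440 ± 132 CPM in Normal to 2194 ± 612 CPM in MET Invasive margin. Cstb in monocytes was at 254 ± 86.8 CPM in Normal, 445 ± 40.4 in Pre-MET, 480 ± 223 in Distal normal tissue, 346 ± 67.4 in Relapse-free, 863 ± 381 in MET, 550 ± 209 in MET Invasive margin and 1613 ± 1085 in MET Core, with 1072 ± 362 in Primary. Cstb in macrophages was at 702 ± 146 CPM in Normal, 1004 ± 265 in Relapse-free, 1202 ± 182 in Primary, 1773 ± 1164 in Distal normal tissue, 1944 ± 777 in MET Invasive margin, 2448 ± 539 in MET and 2686 ± 793 in MET Core. The makeup of labels also differed: Mon_Thbs1, the monocyte label richest in Cstb, was 1.21% of monocytes in Normal, 5.28% in Distal normal tissue and 25.5% in MET.

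**Figure D5:**
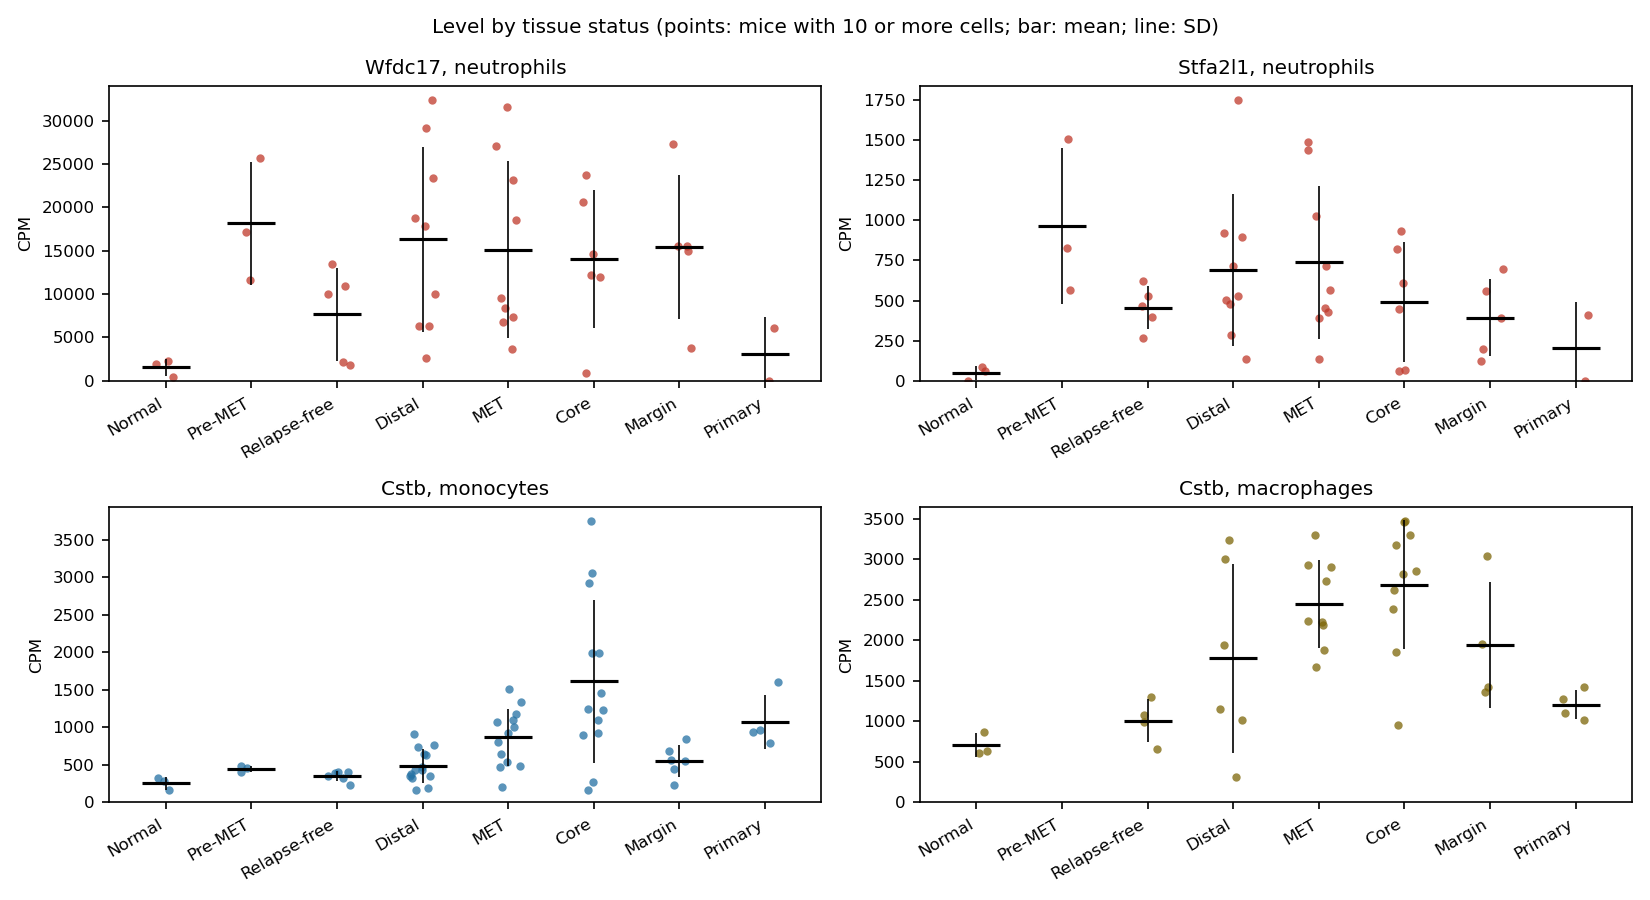
CPM by tissue status for Wfdc17 and Stfa2l1 in neutrophils and Cstb in monocytes and macrophages; points are mice, bars means and lines SDs. Pre-MET macrophages had too few cells for a sum. Wfdc17 is low in Normal neutrophils (1531 CPM) and Cstb highest in MET Core (1613 CPM in monocytes, 2686 CPM in macrophages).

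Relatives of the 5 genes were for the most part low. Of the 16 WAP family genes, Wfdc18 reached 71.6 CPM in Neut_Ifit3, Wfdc10 reached 90.9 CPM in Mac_Cd9, and the other 11 beside the 3 members stayed at or under 1.48 CPM in every myeloid label. The stefin A relatives Stfa1 (up to 492 CPM), Stfa2 (255), BC100530 (261) and Gm5483 (911) peaked in neutrophil labels. Cst3 peaked in Mon_Ace at 5275 CPM. Transcripts of the neutrophil serine proteases Elane and Ctsg, whose products Slpi is known to block, and of Prtn3 were scarce in all 13 labels, with highest means of 21.8 CPM for Elane, 5.22 for Ctsg and 69.0 for Prtn3. The list of cathepsins held 14 genes and also counted legumain (Lgmn), which is not named a cathepsin. Of these 14, 6 peaked in Mac_Gpnmb, 1 of the labels in which Cstb was high, among them the cysteine cathepsins Ctsb (7703 CPM), Ctss (12520) and Ctsz (2999) and the aspartic cathepsin Ctsd (8178). Elsewhere, Ctsc (2631 CPM), Ctsh (944) and Lgmn (1016) peaked in Mac_Cd81, Ctsl (629) in Mac_Isg20 and Ctsk (351) in Mac_Cd9, and the other 3, Ctse (236), Ctso (23.4) and Ctsf (6.22), in Neut_Camp, Mon_Ace and Mac_Cd9. Mmp8 (2933 CPM) and Mmp9 (1949) peaked in Neut_Camp, as did Wfdc21.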

How the data were processed

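The authors sorted single cells into plates, made 3′ libraries with UMIs (SPID-seq), demultiplexed with bcl2fastq 2.15.0.4 per the labels, mapped reads to mm10 with HISAT, dropped reads with more than 1 mapping position, assigned reads to UCSC exons and deposited raw UMI counts per gene and well for 148 plates, with a per-cell label from clustering these cells. Cells had 500 or more UMIs. Because tags are 3′ ends, counts do not scale with transcript length. The 5 genes and the wider list (92 genes, 88 in the files) were chosen with earlier results of these data known. Counts were summed per mouse, tissue and label or lineage (10 or more cells). Doublets were handled by the authors' sort gates only.

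Tissue contrasts used edgeR 4.0.16 (TMM, filterByExpr, quasi-likelihood F test, two-sided) in R 4.3.3, fitted on all genes of the sums and adjusted by Benjamini-Hochberg, with calls at 0.05. Replicates were mice. The fits were tested on simulated counts. Alternatives were DESeq2 1.42.0, RLE factors, no filter, 5 or 20 cells per sum, cells of 1000 or more UMIs, batch terms, single batches or labels, leaving out each mouse in groups of 2 to 5, and the mouse as a block. Tissues of 1 animal pair by design: deviations of the 2 tissues of a mouse correlated at 0.04 to 0.641 in neutrophils (6 mice), -0.044 to 0.607 in Mon_Fn1 (12), 0.067 to 0.355 in macrophages (5) and 0.107 to 0.412 between core and margin (3). Named genes were the 5 members, up to 2 called genes of the wider list per direction and comparison with the largest change (others of the list after their values were seen), and the 3 genes most alike with a mean of 50 CPM or more. Positions and promoters are from RefSeq (GRCm38.p6), shared stretches from GENCODE M21 transcripts. Cells the authors labelled as erythrocytes, outlier or tumor were left out of the comparisons.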

Additional observations from a re-analysis of the deposited data

Results flagged for a closer look

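In 5 of 28 groups of 4 to 10 samples, 1 sample stood far from the rest by Dixon's test, which flags about 1 in 20 groups by chance. Wfdc21 in MET neutrophils was 4700 CPM in mouse 26. Stfa2l1 in neutrophils of Distal normal tissue was 1752 CPM in mouse 31, a sum of 11 cells. Slpi in macrophages was 776 CPM in mouse 28 among the Distal normal tissue samples and 1163 CPM in mouse 37 among the MET samples. Cstb in Mon_Fn1 cells of MET Core was 3095 CPM in mouse 24, a sum of 13 cells.

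Signal was also present in cells that the comparisons leave out. The 281 cells labelled as erythrocytes held Wfdc17 at 7685 pooled CPM (95% Poisson interval 7395 to 7984, counting error only), above the 3062 CPM of the wells left empty (2000 to 4487). The 77 cells labelled as outlier held Wfdc17 at 6440 CPM (5999 to 6905) and Slpi at 1718 CPM (1494 to 1966), pooled over 3 samples, the latter above the 353 CPM of the wells left empty (72.9 to 1033). Both values rest on 1 sample, with 13320 CPM of Wfdc17 and 3768 CPM of Slpi, while the other two had 743 and 875 CPM of Wfdc17 and 0 and 38.1 CPM of Slpi, below the wells left empty. The 4 samples with 10 or more erythrocytes had 2880 to 12730 CPM of Wfdc17. The cause was not tested.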

How the results depend on the processing

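Under each alternative run, Wfdc17 stayed higher in Pre-MET neutrophils, the log2 fold changes of Wfdc17 and Cstb in Pre-MET monocytes stayed above 0 (Wfdc17 at only 0.018 ± 0.24 in Mon_Fn1 cells alone, edgeR adjusted p = 0.983), and in MET macrophages Wfdc17 and Cstb stayed higher and Wfdc21 lower. Wfdc21 in macrophages kept its call in all 10 (log2 fold change -4.19 to -2.18, edgeR or DESeq2 adjusted p 4.54e-06 to 0.0457). In the block, same-mouse and single-batch fits, however, Wfdc21 reached the filter's level in Distal normal tissue alone, so those passes support nothing. Single-label, single-batch, same-mouse, summed-row and area-label alternatives were chosen after seeing the data. Batch terms for Normal against Pre-MET and fits with only or without Mac_Cd9 could not be made. Of the other calls, Wfdc17 passed in 9 of 13 alternatives in neutrophils of Normal against Pre-MET, and Wfdc17 in 10 of 15 in monocytes, where Cstb passed in 1 of 15. The 9 include the fit within Neut_Ptgs2, which is given as a description. In macrophages of Distal normal tissue against MET, Wfdc17 and Cstb were not called in the main fit and passed in 3 of 10 and 2 of 10 alternatives. Among the 3 of Wfdc17 is the block fit, which it entered through MET alone, so that pass supports nothing. Slpi in monocytes and Stfa2l1, Slpi and Wfdc21 in neutrophils passed the filter through Pre-MET alone, so their constant direction, the 4 of 14 alternatives in which Slpi in monocytes was past the threshold (among them 5.17 without Normal mouse 1) and the 5 of 12 of Stfa2l1 support nothing. Depth limits the sums of Normal neutrophils (13 to 36 cells), distal macrophages (10 to 20) and MET Core Mon_Fn1 (11 to 51), among others.

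Counts of called genes changed as follows, and the cause was not tested. For monocytes, Normal against Pre-MET, 214 became 127 with cells of 1000 or more UMIs, 11 in Mon_Fn1, 6 in Mon_Ace and 87 to 138 without 1 mouse. For neutrophils in the same comparison, 4 became 10 without the filter, 0 with sums of 20 or more cells and 0 to 7 without 1 mouse. Neutrophils of Distal normal tissue against MET went from 0 to 5 without the filter and 1 within 1 batch. Macrophages went from 123 to 461 without the filter, 59 with cells of 1000 or more UMIs and 57 within 1 batch. Mon_Fn1 in core against margin went from 0 to 1 without the filter, 1 with sums of 20 or more cells, 6 with cells of 1000 or more UMIs, 2 with a batch term and 6 within 1 batch, and stayed at 0 without any 1 margin mouse. Mon_Thbs1 went from 29 to 100 with DESeq2, 51 without the filter, 19 and 71 with sums of 5 and 20 or more cells, 14 with cells of 1000 or more UMIs, 0 with a batch term and 0 to 28 without 1 Primary mouse (0 without mouse 10, 1 without mouse 38).

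With the mouse as a replicate block the calls were 0 in neutrophils and Mon_Fn1 of Distal normal tissue against MET, 120 in macrophages (86 in the same mice without the block) and 0 in core against margin, and of the 5 genes the block changed only the calls of Wfdc17 and Cstb in macrophages. Wfdc17 entered that macrophage fit through MET alone. Directions turned only for differences that were not called. In neutrophils of Distal normal tissue against MET, the log2 fold change of Wfdc17 became 0.21 and 0.012 with sums of 5 and 20 or more cells, 0.16 with the block, 0.059 in the same mice without it, 0.079 within 1 batch and 0.17 in Neut_Ptgs2. Wfdc21 became 0.044 within 1 batch, Slpi 0.040 with the block and Stfa2l1 -0.097 in Neut_Ptgs2. In Mon_Fn1, Wfdc17 became 0.022 with sums of 5 or more cells, 0.076 with a batch term, 0.0039 with the block, 0.0017 in the same mice without it, and 0.036, 0.091 and 0.27 within 3 single batches, and Slpi -0.042 within 1. Slpi in macrophages became -0.80 with cells of 1000 or more UMIs and with a batch term. In core against margin, Wfdc17 became 0.22 without the filter, 0.042 with sums of 20 or more cells, 0.31 with cells of 1000 or more UMIs, 0.11 with a batch term, 0.35 with the block, 0.34 in the same mice without it, 0.093 within 1 batch, 0.20 with margin sums of area ADJ only, and -0.20 to 0.051 without 1 margin mouse (0.051 without mouse 31, 0.0019 without mouse 36). In Mon_Thbs1 a batch term gave -1.53 for Wfdc17, -0.62 for Slpi and -0.16 for Cstb. Slpi was highest in Neut_PMN-MDSC instead of Neut_Ifit3 with sums of 20 or more cells and with cells of 1000 or more UMIs, and Stfa2l1 in Neut_Lcn2 with sums of 5 or more cells.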
